A study of Mus musculus with 4 samples.

Results

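Lama5, Smoc1, Smoc2 and Npnt, 4 genes for secreted proteins of the basement membrane, were followed across the stromal cells of the mouse small intestine. They were chosen by name, with earlier results of these data known, and are 4 of the 3891 genes of the table used here. Wild type male C57Bl/6 mice of 8 weeks had given small intestine, from which cells positive for PDPN (gp38) and negative for the leukocyte marker CD45, the epithelial marker EpCAM and the endothelial marker CD31 were sorted. All samples share this genotype, strain and age, and no treatment was given. Of the 4 samples, the 2 10X Genomics libraries with 16891 cells were analysed, and the 2 Smartseq2 plates do not enter. Cells were grouped by which genes had a UMI (unique molecular identifier, a tag that marks 1 captured RNA molecule), and none of the 4 genes took part in this grouping.

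Cells with a UMI of Sox6, a transcription factor gene of the subepithelial fibroblasts that lie beneath the epithelium, formed the subepithelial cells. They were split by Wif1, which encodes a secreted Wnt inhibitor, and by Adamts18, which encodes a secreted metalloprotease. This gave Wif1+ cells (114 in library 1 and 821 in library 2), Wif1- Adamts18- cells (153 and 1704) and Wif1- Adamts18+ cells (18 and 174). In the library of 14344 cells, 4 Sox6+ cells had a UMI of both Wif1 and Adamts18 and were counted as Wif1+. Cells without Sox6 were smooth muscle cells with at least 2 of Hhip, Cnn1 and Actg2 (35 and 174), mesothelial-like cells with at least 3 of Inmt, Penk, Vit and Scara5 (330 and 1103), the Fibin type with at least 3 of Chodl, Dner, Thbs2 and Ptn (95 and 681), crypt cells with Grem1 (1019 and 4799) or villus cells with Lpl (595 and 3635), in this order. The remaining 188 and 1253 cells passed no rule. A cell without a UMI of a gene may still express it, so that Adamts18- and Wif1- mean not detected.

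The basement membrane is the thin sheet of extracellular matrix on which the epithelium rests, built on networks of laminin and type IV collagen that nidogens and heparan sulfate proteoglycans connect. A laminin is a trimer of an α, a β and a γ chain. In the gut its α chains change along the axis from crypt to villus, and the α5 chain encoded by Lama5 is known as a major α chain of the villus. Smoc1 and Smoc2 encode related secreted calcium-binding glycoproteins of the SPARC family that lie in or beside basement membranes. Npnt encodes nephronectin, a basement membrane protein and a ligand of the integrin to which Itga8 contributes the α chain.

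In GRCm38 (GENCODE M21), Lama5 lies at chr2:180176373-180225859 on the minus strand, Smoc1 at chr12:81026808-81186414 on the plus strand, Smoc2 at chr17:14279506-14404790 on the plus strand and Npnt at chr3:132881745-132950291 on the minus strand. All 4 are protein-coding, and each spans 1 small annotated gene. For Smoc2 that is 4930474M22Rik, an antisense gene. Upstream sequence in RefSeq (GRCm38.p6) was matched for 2 of the 4 genes, Lama5 and Npnt, and is shown because both rose in the comparison of Adamts18+ with Adamts18- cells. The 250 bases before the annotated start are written 5′ to 3′ on the gene's own strand, Lama5 from chr2:180225860-180226109 and Npnt from chr3:132950292-132950541, and capitals mark the GC box GGGCGG on either strand.
Lama5: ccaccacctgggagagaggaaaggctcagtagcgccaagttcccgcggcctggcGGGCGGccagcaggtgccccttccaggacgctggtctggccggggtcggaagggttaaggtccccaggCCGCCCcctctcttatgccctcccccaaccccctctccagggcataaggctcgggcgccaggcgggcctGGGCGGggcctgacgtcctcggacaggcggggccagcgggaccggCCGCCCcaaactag
Npnt: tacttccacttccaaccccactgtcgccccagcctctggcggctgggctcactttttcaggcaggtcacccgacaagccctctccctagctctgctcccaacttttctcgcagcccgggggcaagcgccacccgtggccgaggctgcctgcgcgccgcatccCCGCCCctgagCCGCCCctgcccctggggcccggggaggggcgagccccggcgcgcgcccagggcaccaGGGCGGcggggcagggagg
The Lama5 sequence held 4 GC boxes and the Npnt sequence 3, where 32.7% of 32851 mouse promoter sequences of the same length held at least 1. G and C made up 72.4% and 74.0% of the bases, against a median of 52.4%. Both strands were also searched for AACAAT, a core motif of SOX factors, which 9.42% of the promoters held and these 2 did not. The AP-1 motif TGANTCA, held by 6.75%, was not found in them. Nor was the TATA box, TATAAA, which 12.4% held. Such matches describe the letters only.

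Depth per cell ran from 559 to 26890 UMIs in library 1 (median 8757) and from 465 to 22450 in library 2 (median 6874). The libraries shared 7 cell barcodes. Sox6+ cells together were deeper than the rest (median 11064 against 8351.5 UMIs in library 1 and 8299 against 6508 in library 2). By group the medians were 7636.5 to 11976 in the 3 subepithelial groups and 5949 to 9982 in the other 5. In library 2, mesothelial-like cells (8046) were deeper than Wif1- Adamts18- cells (7636.5). Shares of cells with a UMI are therefore also given after thinning each cell to 2000 UMIs. The 7 subepithelial markers Pdgfra, F3, Tnc, Foxl1, Bmp3, Bmp5 and Bmp7 summed to 46.5 to 64.4 UMIs per 10,000 in the 3 subepithelial groups and to at most 36.7 in any other. In the smooth muscle group Myh11, the smooth muscle myosin heavy chain, reached 14.5 and 19.1 UMIs per 10,000 in library 1 and library 2, against 0.327 and 0.314 in villus cells. The 6 measured smooth muscle markers summed to 113 and 126 there, but also to 57.2 to 83.7 in the 3 subepithelial groups (83.7 and 66.8 in Wif1- Adamts18+ cells), and to at most 16.4 in the rest. The villus markers summed there to 116 and 105, near the 116 and 140 of the villus group, so the group held villus marker RNA at the level of villus cells. The same sum rose through the subepithelial cells, from 36.9 and 44.4 in Wif1+ over 70.4 and 79.4 in Wif1- Adamts18- to 90.4 and 108 in Wif1- Adamts18+ cells. The 3 Fibin type markers, of which Tnc is also a subepithelial marker, rose likewise, from 9.07 and 10.1 over 14.5 and 13.6 to 23.2 and 23.4. The 5 measured crypt markers stood at 0.490 and 3.63 in Wif1+, at 3.996 and 10.1 in Wif1- Adamts18- and at 3.67 and 13.3 in Wif1- Adamts18+ cells, and the 3 markers of interstitial cells of Cajal at 4.38 and 3.65, 2.80 and 2.40, and 2.22 and 2.54. The part of these lists in the differences between the groups was not tested. The mesothelial-like markers summed to 15.6 and 17.6 in their own group and to 10.8 and 11.9 in crypt cells, while the crypt markers summed to 62.0 and 56.2 in mesothelial-like cells and to 45.5 and 48.0 in crypt cells, so that these groups are not set apart by them. Wt1, the defining mesothelial marker, was found in 12.7% and 17.7% of the mesothelial-like cells. In the Fibin type the 3 Fibin type markers summed to 42.1 and 31.6. Of these, Fibin stood at 28.9 and 17.5 and Sfrp2 at 0, so that Sfrp2 does not mark this group. Of the 10 epithelial markers the summed level stayed between 0.121 and 0.349 in all 8 groups, and that of the 6 immune markers between 0.0483 and 0.406. The 7 endothelial markers summed to 0.936 and 1.01 in the smooth muscle group, with Cdh5 and Cldn5 at 0, and to at most 0.294 in the other 7. The 5 pericyte markers summed there to 22.2 and 21.1, against 17.6 and 23.2 in villus cells and at most 18.6 in the other 6. The 6 glia markers reached 1.34 in Wif1- Adamts18- cells of library 2 (0.198 in library 1) and stood at 0.187 or less in all other groups.

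Levels are given as UMIs per 10,000 UMIs of the group, each gene against itself and never against another gene. Differences are of the mean natural log value per cell, tested in 1 limma fit over the 16 library and group means with the library as a block, with n = 2 libraries and the standard error (SE) of the fit. How many mice stand behind each library is not stated, so these p-values measure the spread between libraries only. That spread is 1 estimate per gene shared by all 8 groups, and each mean counts the same whatever its number of cells. It is therefore not the spread of the groups compared, which can be wider.

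Lama5 was highest in Wif1- Adamts18+ subepithelial cells, with 1.16 UMIs per 10,000 in library 1 and 1.23 in library 2. The Wif1- Adamts18- cells followed with 0.297 and 0.139, and the smooth muscle cells with 0.121 and 0.128. The Wif1+ subepithelial cells had 0 Lama5 UMIs in 114 cells of library 1, which by the limit of 3 counts allows a UMI in up to 2.63% of such cells, and 0.0291 UMIs per 10,000 in library 2. The library values of these leading 3 groups did not overlap. Villus cells stood at 0.0272 and 0.0466. The Fibin type, Wif1+ and crypt cells, at 0.0291 or less, overlapped in their library values from neighbour to neighbour, and mesothelial-like cells were last with 0 and 0.00546. A Lama5 UMI was found in 61.1% of the 18 Adamts18+ cells of library 1 (exact 95% interval 35.7 to 82.7) and in 44.8% of the 174 of library 2 (37.3 to 52.5). In Adamts18- Wif1- cells the shares were 14.4% (9.24 to 20.96) and 8.39% (7.12 to 9.81). After thinning to 2000 UMIs, the shares were 16.7% and 16.8% in Adamts18+ cells and 5.30% and 2.26% in Adamts18- Wif1- cells, in the same order.

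Between Adamts18+ and Adamts18- Wif1- cells, Lama5 differed by 0.46 ± 0.03 (SE) in mean ln value, by 0.45 in library 1 and 0.47 in library 2 (adjusted p = 3.03e-07). Thinned, it was 0.25 (adjusted p = 1.33e-05). In levels this was 3.90-fold in library 1 and 8.82-fold in library 2. Lama5 was also higher in Adamts18- Wif1- cells than in Wif1+ cells, by 0.11 ± 0.03 (adjusted p = 0.0174). That difference was 0.16 in library 1 and 0.06 in library 2, so the value in library 2 alone is under the pooled one by more than 1.5 times. After thinning it did not pass (adjusted p = 0.0693). The Adamts18+ cells were 0.707% of the cells of library 1 and 1.21% of library 2, and they held 22.4% and 31.3% of all Lama5 UMIs. Among cells with a Lama5 UMI, the mean count was 2.18 and 2.45 UMIs in Adamts18+ cells and 2.05 and 1.31 in Adamts18- Wif1- cells. More of the Adamts18+ cells were thus positive, and in library 2 the positive cells also held more UMIs each.

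**Figure D1:**
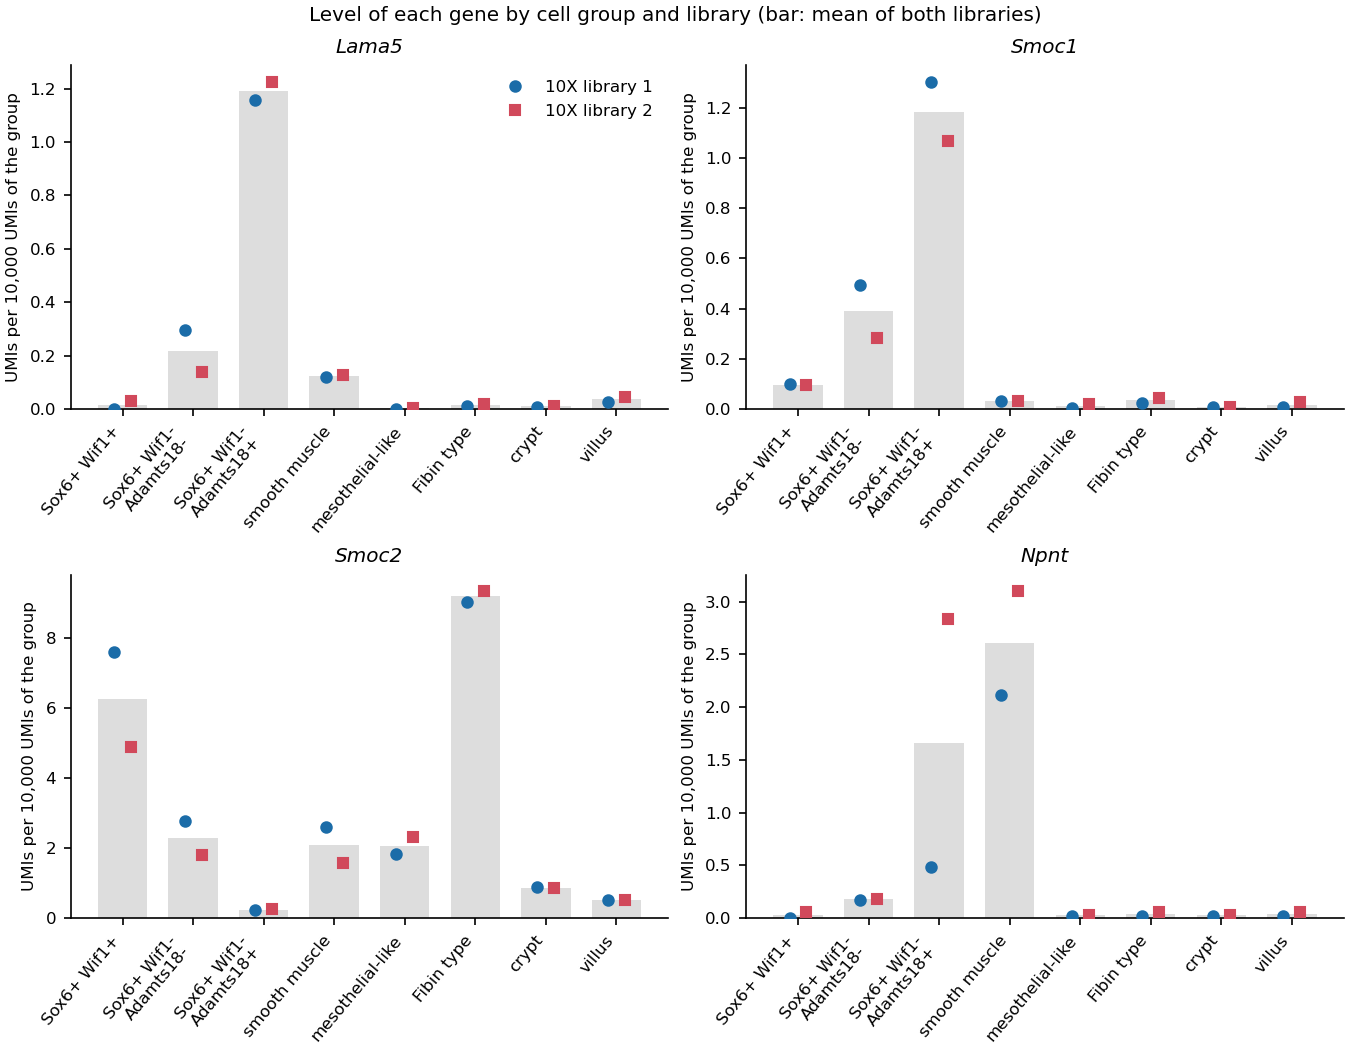
Level of Lama5, Smoc1, Smoc2 and Npnt (y axis, UMIs per 10,000 UMIs of the group) in the 8 cell groups (x axis), with circles for 10X library 1, squares for 10X library 2 and bars for their mean. Lama5 and Smoc1 peak in Sox6+ Wif1- Adamts18+ cells at 1.07 to 1.30, where Smoc2 is lowest (0.241 and 0.250), and the libraries lie far apart for Npnt in that group (0.483 and 2.83).

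Smoc1, like Lama5, was highest in Adamts18+ and next in Adamts18- Wif1- cells. Its level was 1.30 and 1.07 UMIs per 10,000 in Adamts18+ cells, 0.495 and 0.282 in Adamts18- Wif1- cells and 0.0980 and 0.0948 in Wif1+ cells, with no overlap of the libraries between these 3 groups. In all other groups Smoc1 stood at 0.0429 or less. A Smoc1 UMI was found in 55.6% (30.8 to 78.5) and 58.0% (50.3 to 65.5) of Adamts18+ cells, in 25.5% (18.8 to 33.2) and 16.3% (14.5 to 18.1) of Adamts18- Wif1- cells and in 9.65% and 7.80% of Wif1+ cells. Thinned, the Adamts18+ shares were 22.2% and 20.2% and the Adamts18- Wif1- shares 9.27% and 5.89%. The difference between Adamts18+ and Adamts18- Wif1- cells was 0.38 ± 0.03 (adjusted p = 1.64e-06), and that between Adamts18- Wif1- and Wif1+ cells was 0.14 ± 0.03 (adjusted p = 0.00665), both of the same sign in both libraries. Thinned, the latter was 0.09 (adjusted p = 0.0440). Of all Smoc1 UMIs, 82.1% in library 1 and 81.5% in library 2 lay in Sox6+ cells, which were 11.2% and 18.8% of the cells. For Lama5 these shares were 64.5% and 65.9%, and villus cells held a further 12.1% and 17.4% of its UMIs.

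Smoc2 ran the other way among the subepithelial cells. Wif1+ cells had 7.62 and 4.89 UMIs per 10,000, Adamts18- Wif1- cells 2.79 and 1.79, and Adamts18+ cells 0.241 and 0.250, the lowest of all 8 groups. A Smoc2 UMI was found in 97.4% (92.5 to 99.5) and 90.9% (88.7 to 92.7) of Wif1+ cells, and in 2 of 18 and 26 of 174 Adamts18+ cells, or 11.1% (1.38 to 34.7) and 14.9% (10.0 to 21.1). The difference was -0.91 ± 0.10 between Adamts18- Wif1- and Wif1+ cells (adjusted p = 0.000167) and -0.69 ± 0.10 between Adamts18+ and Adamts18- Wif1- cells (adjusted p = 0.000534). Both comparisons use the Adamts18- Wif1- cells and are not independent. From Wif1+ to Adamts18+ cells the level was 31.6-fold lower in library 1, where the Adamts18+ cells held 5 UMIs, and 19.6-fold lower in library 2. These folds are not exact, because the Smoc2 share of Adamts18+ cells overlapped that of the Ptprc+ cells read for free RNA below.

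The highest Smoc2 level of all was in the Fibin type, with 9.04 and 9.35 UMIs per 10,000 and a UMI in 93.7% and 93.2% of cells. This group holds 3 or more of Chodl, Dner, Thbs2 and Ptn and no Sox6 UMI. It exceeded the mean of mesothelial-like, crypt and villus cells by 1.62 ± 0.08 (adjusted p = 8.95e-09), and its level was 10.3-fold and 10.7-fold that of crypt cells. Adamts18- Wif1-, smooth muscle and mesothelial-like cells lay between 1.57 and 2.79, and the libraries of neighbours in this order overlapped. Crypt cells (0.878 and 0.871) and villus cells (0.507 and 0.516) came next, each apart from its neighbours. The crypt minus villus difference of 0.16 ± 0.10 did not pass (adjusted p = 0.444), although the level was 1.73-fold and 1.69-fold higher in crypt cells.

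Npnt was high in 2 groups. In the smooth muscle group it reached 2.11 and 3.1 UMIs per 10,000, with a UMI in 45.7% (28.8 to 63.4) and 53.4% (45.7 to 61.0) of cells. In Adamts18+ subepithelial cells it was 0.483 in library 1 and 2.83 in library 2, and the shares of cells with a UMI, 3 of 18 or 16.7% (3.58 to 41.4) and 105 of 174 or 60.3% (52.7 to 67.7), did not overlap within counting error. For Lama5 and Smoc1 the intervals of the libraries overlapped in these same cells. The Adamts18 level there was 1.55 and 2.82 UMIs per 10,000, and the 5 crypt markers, Ackr4, C3, Rspo3, Cd81 and Postn, summed to 3.67 and 13.3. The part of either in the library difference of Npnt was not tested. In Adamts18- Wif1- cells Npnt stood at 0.172 and 0.186, and in the 5 remaining groups at 0.0569 or less, with 0 UMIs in the 114 Wif1+ cells of library 1.

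The Npnt difference between Adamts18+ and Adamts18- Wif1- cells was 0.52 ± 0.14 (adjusted p = 0.0241), made up of 0.18 in library 1 and 0.85 in library 2. These 2 values had an SD of 0.48. Between crypt and villus cells the SE of Npnt was also 0.14, with an SD of 0.0058. The shared SE and the adjusted p thus do not reflect the spread of the Npnt difference in Adamts18+ cells. Over the alternatives the adjusted p of this difference ran from 0.00697 to 0.0975, and it did not pass under 4 of 8. The smooth muscle group exceeded the mean of the other 7 groups by 0.75 ± 0.10 (adjusted p = 0.000169), by 0.68 and 0.82 in the libraries, and passed under all 8. Smooth muscle cells were 1.37% and 1.21% of the cells and held 43.2% and 27.3% of the Npnt UMIs. Within the smooth muscle group of library 2, 15 of the 16 cells with a Lama5 UMI also had an Npnt UMI (93.8%, 69.8 to 99.8), against 49.4% (41.3 to 57.4) of the cells without one. Library 1 held 4 such cells, 3 of them with Npnt.

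**Figure D2:**
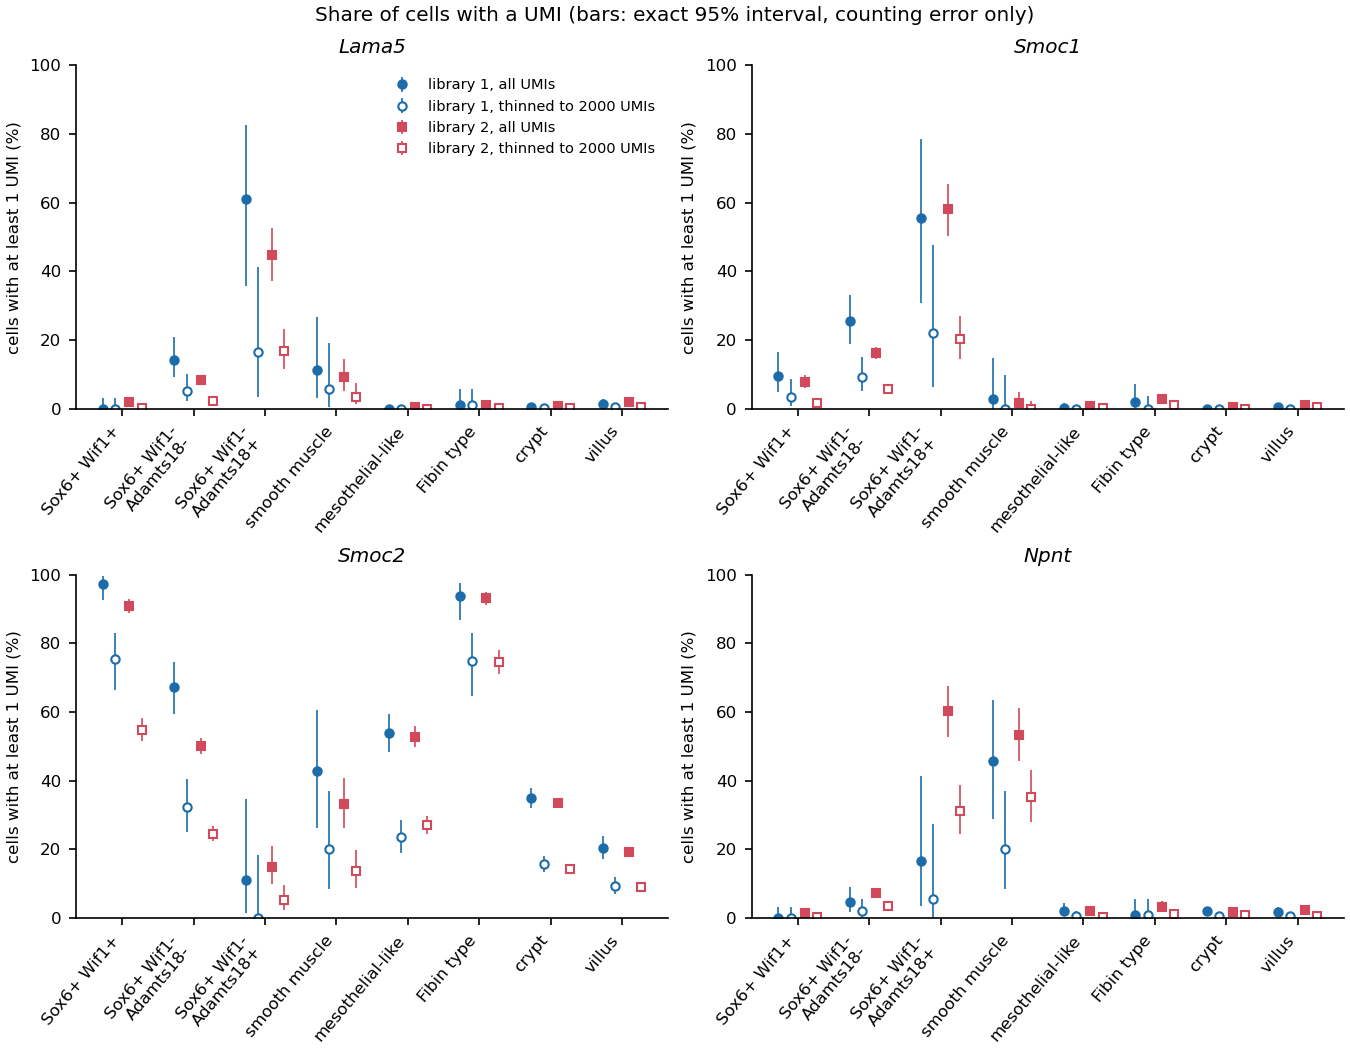
Share of cells with at least 1 UMI of each gene (y axis, %) in the 8 cell groups (x axis), with filled symbols for all UMIs, open symbols after thinning each cell to 2000 UMIs, circles for library 1, squares for library 2 and bars for the exact 95% interval. Thinning lowers the shares, and Adamts18+ cells stay above Adamts18- Wif1- cells for Lama5 (16.7% and 16.8% against 5.30% and 2.26%).

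Each comparison also covers the other genes of the table, and the share of them called is given beside the 4. Because the 4 were chosen with earlier results of these data known, this share is a description and no test of them. Between the 3 subepithelial groups and the mesothelial-like, Fibin type, crypt and villus groups, Lama5 (0.23 ± 0.01, adjusted p = 2.24e-08), Smoc1 (0.28 ± 0.01, adjusted p = 7.08e-09) and Npnt (0.20 ± 0.07, adjusted p = 0.0292) were higher. That is 3 of 4, where 73.4% of 2018 tested genes were called and 40.2% were called higher and 33.2% lower. The Npnt call was lost under 4 of 8 alternatives (adjusted p of 0.0626 to 0.0935), and thinning lowered the Lama5 difference to 0.13 (adjusted p = 5.99e-07). Smoc2 differed by 0.03 ± 0.05 (adjusted p = 0.592), with 0.14 in library 1 and -0.07 in library 2 and levels on both sides of those of crypt and villus cells among the 3 subepithelial groups. The Npnt value was 0.08 in library 1 and 0.32 in library 2.

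Between Adamts18+ and Adamts18- Wif1- cells all 4 were called, 3 higher and 1 lower, where 16.3% of genes were called, 10.4% higher and 5.90% lower. Between Adamts18- Wif1- and Wif1+ cells 3 of 4 were called (Lama5, Smoc1 and Smoc2), where 10.6% were, 2.97% higher and 7.58% lower. Npnt differed there by 0.06 ± 0.14 (adjusted p = 0.934). In the smooth muscle comparison, with 36.8% of genes called, 13.7% higher and 23.0% lower, Npnt was higher, and Smoc1 (-0.11 ± 0.02, adjusted p = 0.00150) and Smoc2 (-0.30 ± 0.08, adjusted p = 0.00938) were lower. Without the cells that pass several rules, the Smoc2 difference was -0.57 (adjusted p = 9.04e-05). Its direction also depended on the scale. On the log2 scale of summed UMIs it was 0.24 (adjusted p = 0.377), and Lama5, at -0.02 ± 0.02 (adjusted p = 0.441), turned to 0.26 (adjusted p = 0.258). In the Fibin type comparison, with 56.0% of genes called, 26.7% higher and 29.3% lower, Smoc2 was called, and the differences of the other 3 genes were between 0.0024 and 0.0145 with SE of 0.0207 to 0.113. Between crypt and villus cells 16.6% of genes were called, 11.1% higher and 5.55% lower. Of the 4 genes 0 were called by limma there (adjusted p of 0.444 to 1.0), and 0 had an unadjusted p under 0.05.

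**Figure D3:**
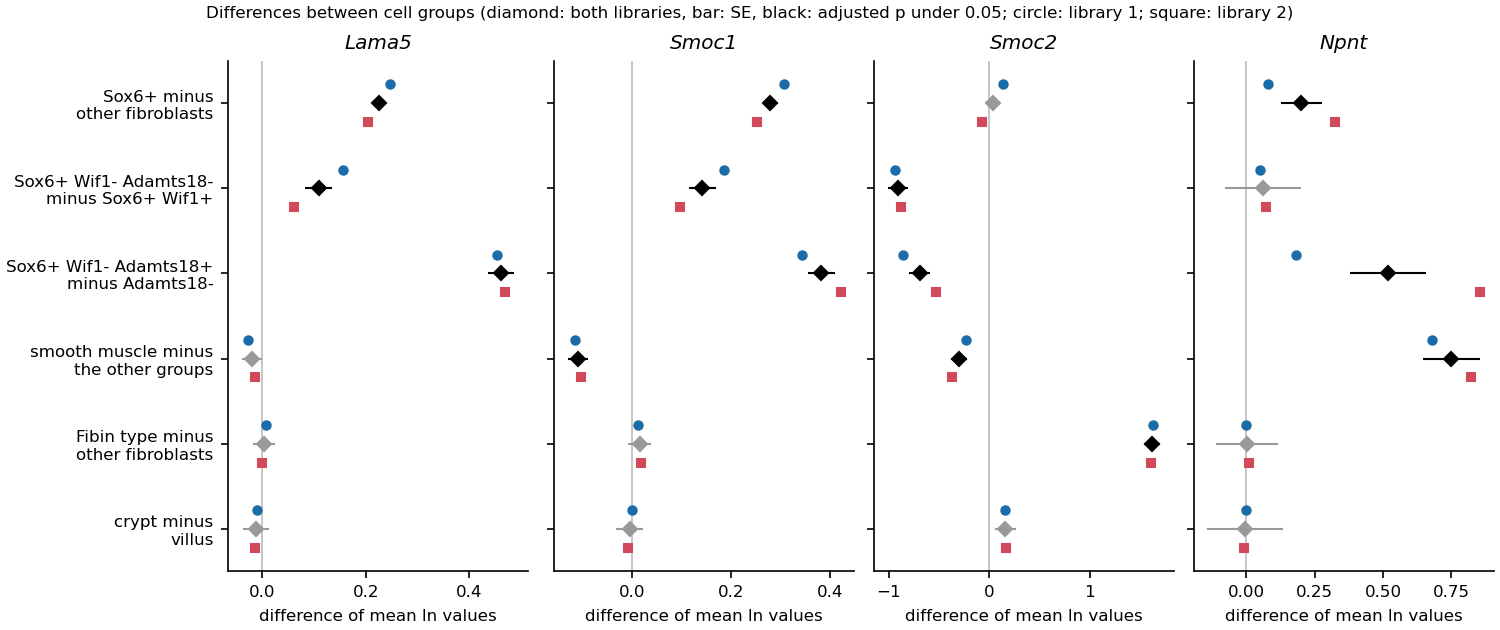
Difference of the mean natural log value (x axis) of each gene in the 6 comparisons (rows), with diamonds for both libraries together, bars for the SE, black for an adjusted p under 0.05, grey for the rest, circles for library 1 and squares for library 2. Lama5 and Smoc1 rise and Smoc2 falls at both steps from Wif1+ over Adamts18- Wif1- to Adamts18+ cells, and the 2 libraries of Npnt lie at 0.18 and 0.85 in the last step.

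Within the Wif1- subepithelial cells the levels were also read by the number of Adamts18 UMIs in the cell. Lama5 went from 0.297 and 0.139 UMIs per 10,000 in cells with 0 Adamts18 UMIs to 0.667 and 0.631 with 1 UMI and to 1.84 and 1.67 with 2 or more. Smoc1 went from 0.495 and 0.282 to 0.667 and 0.811 and to 2.18 and 1.26. Smoc2 went from 2.79 and 1.79 to 0.417 and 0.436 and to 0 and 0.112. Npnt went from 0.186 to 1.32 and 3.96 in library 2, and from 0.172 to 0 and 1.15 in library 1. The bins with 1 and with 2 or more UMIs held 10 and 8 cells in library 1 and 76 and 98 in library 2, so that the order rests mainly on library 2. In that library, Lama5 was found in 32.9% (22.5 to 44.6) of cells with 1 Adamts18 UMI and 54.1% (43.7 to 64.2) of cells with 2 or more, and Smoc2 in 23.7% (14.7 to 34.8) and 8.16% (3.59 to 15.5). The median depth of these bins was 8346 and 8744.5 UMIs.

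**Figure D4:**
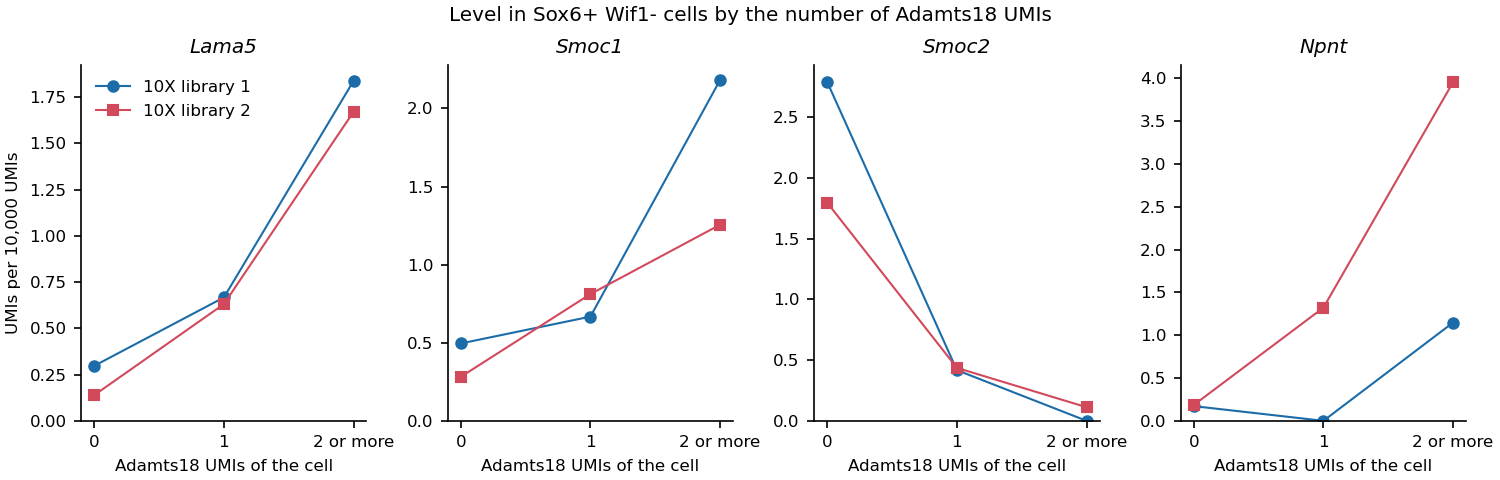
Level of each gene (y axis, UMIs per 10,000 UMIs) in Sox6+ Wif1- cells with 0, 1 or at least 2 Adamts18 UMIs (x axis), with circles for library 1 and squares for library 2. Lama5 and Smoc1 are highest and Smoc2 lowest in cells with at least 2 Adamts18 UMIs in both libraries, of which library 1 held 8 cells.

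Cells with Adamts18 but without Sox6, 3 in library 1 and 34 in library 2, were read for the same genes. In the 34 cells Lama5 stood at 1.56, Smoc1 at 0.833, Smoc2 at 1.09 and Npnt at 1.77 UMIs per 10,000, where all Sox6- cells of that library had 0.0261, 0.0177, 1.47 and 0.0967 in the same order. Lama5, Smoc1 and Npnt were thus above that level, and Smoc2 was below it but above its level in Sox6+ Wif1- Adamts18+ cells (0.250). Seen from the other side, 11 of 33 and 78 of 221 Wif1- subepithelial cells with a Lama5 UMI had Adamts18 (33.3% and 35.3%), against 5.07% and 5.79% of those without Lama5. For cells with and without a Smoc1 UMI the shares were 20.4% and 26.7% against 6.56% and 4.87%. Most Lama5+ cells thus had no Adamts18 UMI in either library.

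The genes were next read for co-detection in single cells. Among all Wif1- subepithelial cells, Smoc1 was found in 63.6% (45.1 to 79.6) of Lama5+ cells against 20.3% (13.9 to 28.0) of Lama5- cells in library 1, and in 51.6% (44.8 to 58.3) against 15.9% (14.2 to 17.8) in library 2. Npnt was found in 15.2% (5.11 to 31.9) against 3.62% (1.19 to 8.25) in library 1, with overlapping intervals, and in 44.3% (37.7 to 51.2) against 8.03% (6.76 to 9.44) in library 2. Smoc2 went the other way, with 27.3% (13.3 to 45.5) against 69.6% (61.2 to 77.1) in library 1 and 21.3% (16.1 to 27.3) against 50.3% (47.8 to 52.7) in library 2. By Smoc1, Smoc2 was found in 49.0% against 66.4% in library 1, with overlapping intervals, and in 29.4% against 51.3% in library 2. Lama5+ cells were slightly deeper, with a median of 8373 UMIs against 7638 in library 2, and thinned cells kept the order there (Smoc1 22.4% against 6.66%, Npnt 29.9% against 5.15%, Smoc2 0 of 67 against 23.6%).

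**Figure D5:**
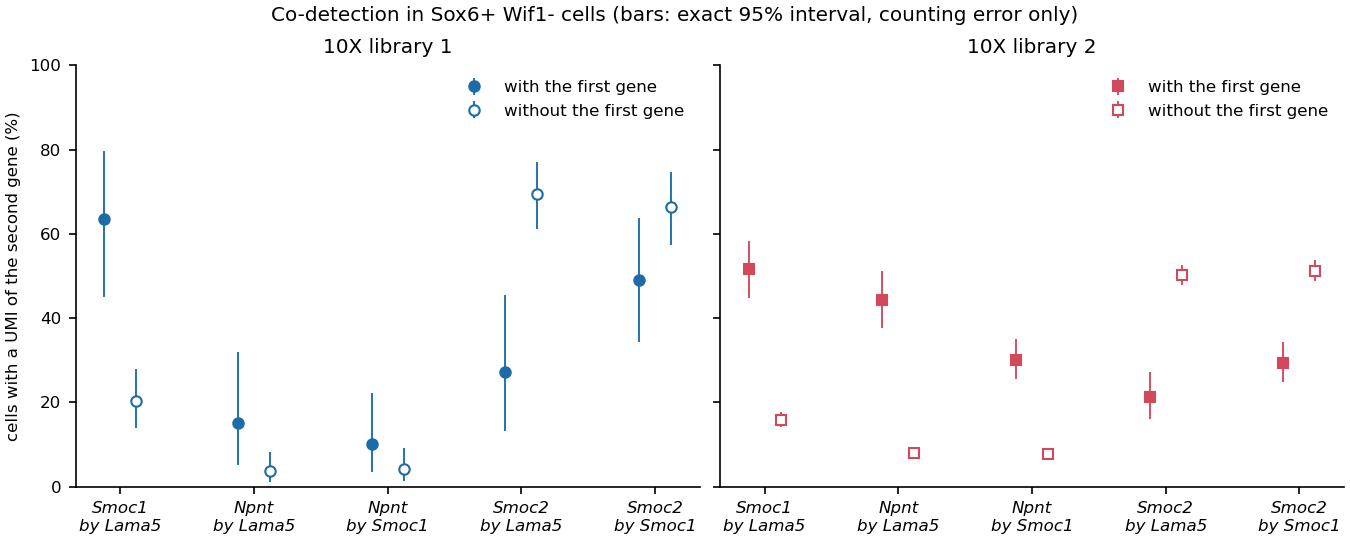
Share of Sox6+ Wif1- cells with a UMI of a second gene (y axis, %) among cells with (filled) and without (open) a UMI of a first gene, for 5 pairs (x axis, second gene by first gene) in library 1 (left) and library 2 (right), with exact 95% intervals as bars. Smoc1 and Npnt are found more often and Smoc2 less often in Lama5+ cells of library 2 (51.6%, 44.3% and 21.3% against 15.9%, 8.03% and 50.3%).

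The same pairs were read in Wif1- cells without Adamts18. Among cells without an Adamts18 UMI, Smoc1 was found in 14 of 22 Lama5+ cells of library 1 (63.6%, 40.7 to 82.8) against 19.1% of the rest, and in 60 of 143 of library 2 (42.0%, 33.8 to 50.5) against 13.9% (12.2 to 15.7). Smoc2 was found in 40.9% (20.7 to 63.6) against 71.8% (63.2 to 79.3) and in 28.0% against 52.1%, with overlapping intervals in library 1. Npnt was found in 2 of 22 (9.09%, 1.12 to 29.2) against 3.82% (1.25 to 8.68) in library 1, with overlapping intervals, and in 25.9% (18.9 to 33.9) against 5.70% (4.60 to 6.97) in library 2. After thinning, 38 cells of library 2 kept a Lama5 UMI, and Smoc1 was found in 18.4% (7.74 to 34.3) of them against 5.60% (4.53 to 6.82), Smoc2 in 0 against 25.1% and Npnt in 10.5% (2.94 to 24.8) against 3.28% (2.48 to 4.26). The thinned Npnt intervals overlapped. In library 1, 8 cells kept a Lama5 UMI, and all 3 thinned intervals overlapped. In the same cells Foxl1, which encodes a transcription factor of subepithelial telocytes, was found in 50.0% and 49.0% of Lama5+ cells against 22.9% and 22.9% of Lama5- cells, with thinned shares of 0 of 22 against 3.1% in library 1 and 18.2% against 8.25% in library 2. The Foxl1 intervals were apart in library 2 and overlapped in library 1. Bmp3, a BMP ligand gene, had lower shares in Lama5+ cells, 36.4% and 35.7% against 64.1% and 41.0%, with overlapping intervals. F3 was found in 72.7% and 60.1% against 51.1% and 46.8%, but after thinning the library 2 shares were 24.5% (17.7 to 32.4%) and 19.9% (17.9 to 22.0%), with intervals that overlapped. For the other 4 subepithelial markers, Pdgfra, Tnc, Bmp5 and Bmp7, the shares lay between 69.3% and 96.5% in both libraries. The level of Tnc was 17.3 and 17.8 UMIs per 10,000 in Lama5+ against 13.3 and 12.0 in Lama5- cells, and that of Pdgfra was 17.7 and 18.8 against 22.6 and 20.6, with no test. Bmp5 was at 10.01 and 9.56 against 7.94 and 8.40, and Bmp7 at 3.76 and 2.87 against 3.31 and 2.30. Within Adamts18+ cells of library 2, Npnt was found in 78.2% (67.4 to 86.8) of Lama5+ cells against 45.8% (35.6 to 56.3) of Lama5- cells. All 3 of Lama5, Smoc1 and Npnt were found in 2 of 18 and 43 of 174 Adamts18+ cells (11.1% and 24.7%), in 1.31% and 1.29% of Adamts18- Wif1- cells and in 0 of 114 and 1 of 821 Wif1+ cells. Outside the Sox6+ cells, all 3 were found in 1 of 595 and 9 of 3635 villus cells, each without a Smoc2 UMI. Among the cells that passed no rule it was 1 of 188 and 0 of 1253. At least 2 of the 3 were found in 44.4% and 55.7% of Adamts18+ cells. Counts of single cells are sparse, and Pearson's r across thinned Wif1- cells was 0.17 in library 1 (169 cells) and 0.13 in library 2 (1855 cells) for Lama5 and Smoc1, 0.02 and 0.25 for Lama5 and Npnt, -0.04 and 0.14 for Smoc1 and Npnt, and -0.09 and -0.08 for Lama5 and Smoc2. The cells behind each r share 1 library.

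Cells with a UMI of Ptprc, the CD45 gene, and none of Sox6 were taken as a gauge of free RNA. The sort was for cells negative for CD45, and whether these cells are leukocytes was not tested. There were 5 such cells in library 1 and 75 in library 2, with median depths of 10372 and 5426 UMIs. Lama5 and Smoc1 were found in 0 of 75, which allows a UMI in up to 4% of such cells. Npnt was found in 2.67% (0.325 to 9.30) and Smoc2 in 8.00% (2.99 to 16.6). The Lama5 and Smoc1 shares of both Wif1- groups in library 2 lie above this at their own, greater depth. After thinning the limit was 4.35% (0 of 69), with 2.26% (1.60 to 3.09) of Adamts18- Wif1- cells below it for Lama5 and 5.89% (4.81 to 7.12) above it for Smoc1. In Adamts18+ cells the thinned shares, 16.8% (11.5 to 23.2) for Lama5 and 20.2% (14.5 to 27.0) for Smoc1, stayed above it. The unthinned Lama5 shares of Wif1+, villus, Fibin type, crypt and mesothelial-like cells in library 2, at most 2.07%, lie within it, and the Smoc2 share of Adamts18+ cells (14.9%, 10.0 to 21.1) overlaps it, as do the Npnt shares in library 2 of every group but Adamts18+ and smooth muscle cells. Among them are the Adamts18- Wif1- cells, at 7.39% (6.20 to 8.74), and their thinned Npnt share of 3.45% (2.63 to 4.44) lies below the thinned limit. The 75 Ptprc+ cells are too few to tell whether the Npnt of Adamts18- Wif1- cells lies above background. In library 2, Npnt was found in 126 of 1704 Adamts18- Wif1- cells. It was found in 12 of 821 Wif1+, 22 of 1103 mesothelial-like, 23 of 681 Fibin type, 93 of 4799 crypt and 91 of 3635 villus cells. Which part of these shares is free RNA was not tested. Lama5 is also a laminin gene of epithelium. In Epcam+ Sox6- cells of library 2 it was found in 0 of 59, which allows up to 5.08%, and in Adamts18+ cells the 10 epithelial markers summed to 0.145 and 0.148 UMIs per 10,000, with Krt18, Krt19, Krt20, Cdh1 and Vil1 at 0. The 7 endothelial markers summed to 0.145 and 0.128 there, with Cdh5, Kdr and Cldn5 at 0.

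The genes most like each of the 4 were taken over the 16 library and group means. These means share 2 libraries and their depth, and the values of r are a description. Smoc1 was nearest to Papln (Pearson's r = 0.996), which encodes the extracellular matrix glycoprotein papilin, then to Abr, Cdh4, Sema6a and Fam162b (0.978 to 0.987). Lama5 was nearest to Elovl7, Cdh4, Gata3, Smoc1 and Fam162b (0.968 to 0.979), so that Smoc1 was among its 5 nearest of 2018 genes. Smoc2 was nearest to Pla1a (0.982) and Npnt to Ddit4l (0.946). Between members r was 0.49 for Lama5 and Npnt, 0.36 for Smoc1 and Npnt, and between -0.43 and -0.33 for Smoc2 with the other 3.

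Of 44 other genes of the basement membrane and the matrix beside it, 24 were in the table and 21 were tested. Between Adamts18+ and Adamts18- Wif1- cells 8 were higher and 4 lower (57.1% called, against 16.3% of all genes), with a median difference of 0.03 against -0.0047 over all genes. The highest differences were those of Emid1 (1.02 ± 0.04, SD of 2 libraries), an EMI domain protein, Postn (0.91 ± 0.33), a matricellular protein, Tgfbi (0.84 ± 0.27), an adhesion protein of the matrix, Col4a5 (0.44 ± 0.09), a type IV collagen chain, and Lamb1 (0.43 ± 0.04), the laminin β1 chain, with adjusted p of 7.99e-07 to 0.00809. Lower were Col18a1 (-0.40 ± 0.13), a collagen of basement membranes, Hmcn1 (-0.24 ± 0.002), hemicentin, Egflam (-0.20 ± 0.01), pikachurin, and Tinagl1 (-0.09 ± 0.06, and -0.05 in library 2 alone), with adjusted p of 0.00209 to 0.0173. Lamb1 stood at 16.6 and 15.3 UMIs per 10,000 in Adamts18+ cells and at 12.0 and 10.7 in Adamts18- Wif1- cells. Papln went from 0.121 and 0.132 in Wif1+ cells over 0.489 and 0.247 to 1.06 and 0.995 in Adamts18+ cells. Lama4, another laminin α chain, was at 6.13 and 4.60 in Adamts18+ cells and at 6.18 and 5.83 in Wif1+ cells. Between Adamts18- Wif1- and Wif1+ cells 3 were higher and 6 lower (42.9% called, against 10.6% of all genes). The higher were Tgfbi (0.41 ± 0.13), Emid1 (0.29 ± 0.17, and 0.18 in library 2 alone) and Papln (0.12 ± 0.09, and 0.06 in library 2 alone). The nidogen genes Nid1 (-0.34 ± 0.06) and Nid2 (-0.24 ± 0.06), Lama4 (-0.33 ± 0.10), Egflam (-0.22 ± 0.07) and Col4a5 (-0.19 ± 0.11, and -0.11 in library 1 alone) were lower, with adjusted p of 0.00665 to 0.0416.

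In the wider comparison of subepithelial with other fibroblasts, 15 of the 21 were higher and 3 lower (85.7%, against 73.4% of all genes). Emid1 (1.23 ± 0.07), Lamb1 (0.98 ± 0.03), Col4a5 (0.89 ± 0.02), Lama4 (0.84 ± 0.12) and Fbln5 (0.77 ± 0.17) led, and the fibulin genes Fbln1 (-2.44 ± 0.46) and Fbln2 (-0.98 ± 0.04) were lower. In the smooth muscle group, where Npnt was high, 5 of 21 were higher and 10 lower (71.4%, against 36.8% of all genes), with Hmcn1 (0.62 ± 0.05), Frem2 (0.59 ± 0.05) and Postn (0.56 ± 0.17) first among the higher. In the Fibin type, where Smoc2 was high, 3 were higher (Fbln1, Vwa1 and Lamb1) and 7 lower (47.6%, against 56.0% of all genes). Between crypt and villus cells 3 were higher and 5 lower (38.1%, against 16.6%).

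Of the SPARC family beside Smoc1 and Smoc2, 3 of 6 genes were tested. Sparcl1 was the 1 gene called in Adamts18+ against Adamts18- Wif1- cells (33.3%, against 16.3% of all genes), where it was higher (0.91 ± 0.03, adjusted p = 2.22e-06), with 3.48 and 4.27 UMIs per 10,000 against 0.713 and 0.987. Against Wif1+ cells the Adamts18- Wif1- cells were higher by 0.25 ± 0.01 (adjusted p = 0.0383), and in Wif1+ cells the level was 0.00754 and 0.250. It was again the 1 gene called of the 3 (33.3%, against 10.6% of all genes). In the subepithelial cells against the other fibroblasts, by contrast, all 3 tested genes were lower (100%, against 73.4% of all genes), with Sparcl1 at -0.29 ± 0.09 (adjusted p = 1.54e-05) and Sparc at -0.29 ± 0.08 (adjusted p = 0.000441). In the Fibin type 2 of the 3 were called (66.7%, against 56.0% of all genes), in opposite directions. Spock2, which encodes a proteoglycan of the family, was higher by 1.16 ± 0.05 (adjusted p = 1.65e-10), and Sparc was lower, at -0.72 ± 0.22 (adjusted p = 1.19e-05). Among 8 tested receptors of basement membrane proteins of 21 listed, 3 were called in Adamts18+ cells, all of them lower (37.5%, against 16.3% of all genes, 5.90% lower). They were the integrin genes Itga1 (-0.41 ± 0.07) and Itga8 (-0.08 ± 0.03), and Bcam (-0.08 ± 0.05, and -0.05 in library 2 alone), which encodes a receptor of laminin α5. Itga8, whose product takes part in the nephronectin receptor, was at 0 and 0.0193 UMIs per 10,000 in Adamts18+ cells. In the smooth muscle group 2 of the 8 receptor genes were called (25.0%, against 36.8% of all genes), a share below that of all genes. Itga8 was higher by 0.09 ± 0.04 (adjusted p = 0.00136), at 0.272 and 0.188 UMIs per 10,000, and Itga6 was lower, at -0.05 ± 0.01 (adjusted p = 0.00106).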

How the data were processed

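Stromal cells of the small intestine were captured on the 10X Genomics platform (2 libraries) and in Smartseq2 plates (2). The authors aligned 10X reads to mm10 (GRCm38) with Cell Ranger 3.1.0 (submitters' processing notes), filtered cells and genes with Seurat, and deposited 1 table of natural log values, the natural log of 1 plus the UMIs of a gene scaled to 10000 per cell. The 739 Smartseq2 columns were not used, because the cell groups are defined among 10X cells, and 1 gene row that ends early was left out. After the log was undone, dividing by the smallest value above 0 in a cell gave back its UMIs, and 100% of values came out whole (tolerance 0.01). The table's genes carry 23.6% and 22.6% of each library's UMIs, and cell totals cover all genes.

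For each library and group the mean natural log value was taken, and these 16 means were tested in limma (version 3.58.1, R 4.3.3, mean trend, 7 residual degrees of freedom) with library as a block, since both libraries hold all 8 groups. The Benjamini-Hochberg threshold was 0.05, over 2018 genes with a UMI in at least 5% of the cells of 1 group, and a group needed 10 cells per library. No count model was run on log values. Intervals are exact Clopper-Pearson at 95% and, like the limit of 3 counts for a count of 0, cover counting error only. Alternatives were the log2 scale (log2 of UMIs per 10,000 plus 0.1), thinning (seed 7), no filter, no trend, no block, at least 2 Sox6 UMIs, and, for doublets, leaving out 189 cells that pass several rules or the 845 deepest cells (5% of each library). No doublet caller was run. Named are the 4 genes, per list and direction up to 5 genes of largest difference that passed with the same sign in both libraries, and the 5 genes most like each of the 4. The genes and lists were chosen with earlier results of these data known. Tested on simulated data for the comparison of Adamts18+ with Adamts18- cells (200 of 2018 genes changed), the fit recovered 70.0% of 2-fold and 96.0% of 4-fold changes, and 10.8% of its calls were false, more than the 5% of the threshold. The simulation gave each gene 1 shared level in all groups, apart from these changes, and an assumed noise. Real groups differ in many genes, so these rates are not those of the fit on the data. Scripts ran in Python 3.11.15 with pandas 2.3.3, numpy 2.4.6, matplotlib 3.10.9 and scipy 1.17.1.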

Additional observations from a re-analysis of the deposited data

How the results depend on the processing

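Of 192 values of the 4 genes under 8 alternative settings, 177 kept their direction and their side of the threshold. Thinning to 2000 UMIs, which left 1361 genes to test, gave 975 called genes in place of 1481 (subepithelial), 85 in place of 213 (Adamts18- Wif1- against Wif1+), 178 in place of 329 (Adamts18+ against Adamts18- Wif1-), 449 in place of 742 (smooth muscle), 718 in place of 1131 (Fibin type) and 178 in place of 335 (crypt against villus). On the log2 scale the second count was 104, and its share of higher calls went from 28.2% to 67.3%. The share went from 63.8% to 41.5% for Adamts18+ cells, where the median of all genes moved to -0.12, from 37.3% to 48.2% for smooth muscle and from 66.6% to 45.5% for crypt against villus. Smoc2 in subepithelial cells turned to -0.12 on the log2 scale (adjusted p = 0.458) and to -0.0025 thinned (adjusted p = 0.974). In smooth muscle Lama5 turned to 0.26 on the log2 scale and 0.022 thinned, and Smoc2 to 0.24 on the log2 scale. Npnt between crypt and villus turned to 0.00056 thinned. Npnt no longer passed in subepithelial cells without the filter (0.20, adjusted p = 0.0935), without the mean trend (0.20, adjusted p = 0.0637), thinned (0.14, adjusted p = 0.0791) and with at least 2 Sox6 UMIs (0.19, adjusted p = 0.0626). It no longer passed in Adamts18+ cells without the filter (0.52, adjusted p = 0.0975), without the mean trend (0.52, adjusted p = 0.0634), thinned (0.33, adjusted p = 0.0951) and with at least 2 Sox6 UMIs (0.49, adjusted p = 0.0557). Lama5 between Adamts18- Wif1- and Wif1+ cells was 0.071 thinned (adjusted p = 0.0693). The causes were not tested. Without the replicate block, that is without the library term, the counts were 1422, 147, 263, 646, 1064 and 243, and no call on the 4 genes changed. With 1 library left out no residual degrees of freedom remain, so each library's value is given without a test. The 18 Adamts18+ cells of library 1 limit every value that rests on them.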
